A study of Mus musculus with 12 samples.

Results

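The genes of the urea cycle and of hepatic ammonia handling were taken from a fixed list of 10 genes, Cps1, Otc, Ass1, Asl, Arg1, Nags, Slc25a15, Slc25a13, Glud1 and Gls2, matched by symbol or older synonym to the probes of a mouse liver array. Of these, 8 genes were measured, among 17742 genes in all. Ass1 and Gls2 matched no named probe and were not analysed here. Where a gene had several probes, the brightest stood for it; of the 8 genes, only Nags had more than 1 probe, with 3.

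The livers came from 3 groups of mice. STZ+MENS mice received STZ (streptozotocin, a toxin of the insulin-producing beta cells) and MENS, STZ mice received STZ without MENS, and Control mice received no treatment. The labels do not spell out MENS; it was delivered through a printed circuit board for 1 h daily, on 5 days of each week, during 6 weeks. The labels give an age of 8 weeks for all mice without saying at which point, and give no strain, sex or STZ dose. Each group held 2 liver samples, called 1 and 2 as in the source names of the labels; the titles number them 1 and 6 in STZ+MENS, 4 and 10 in STZ and 1 and 6 in Control. RNA of each was hybridised to 2 arrays, so 12 arrays carried 6 samples and n = 2 per group throughout. Whether a sample stands for a single animal is not stated, and every p-value reflects the spread among these 6 samples alone, which may be technical. The question the groups pose is how liver expression in STZ mice differed from that in Control mice, and how it differed between STZ mice with and without MENS.

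The liver removes ammonia, released when amino acids are broken down, by turning it into urea. In the mitochondria of hepatocytes around the portal vein, carbamoyl phosphate is made from ammonia and joined to ornithine to give citrulline, which leaves for the cytosol, takes up a further nitrogen from aspartate and is finally split into urea and ornithine. Hepatocytes around the central vein catch remaining ammonia as glutamine. Urea cycle enzymes are known to follow protein intake, glucagon and glucocorticoids, and insulin deficiency in rodents is known to raise the breakdown of amino acids in the liver.

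Levels are given as log2 intensity, the log2 of the deposited intensity after an offset of 50 was added, averaged over the 2 arrays of a sample. Differences are in log2 units with the standard error of the limma model, and group means carry the SD of the 2 samples. A gene was called where its Benjamini-Hochberg adjusted p, over all 17742 genes, was under 0.05. Probes differ in brightness for reasons other than abundance, so no gene's level is set against another's. In tissue RNA, fewer cells of a type and less RNA per cell cannot be told apart. The 3 comparisons share samples: STZ samples enter both STZ+MENS against STZ and STZ against Control.

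None of the 8 genes was called in any comparison. The lowest adjusted p among them, from limma in each case, was 0.104 for STZ+MENS against STZ, 0.189 for STZ+MENS against Control and 0.25 for STZ against Control. Over all genes, 0.0%, 0.00564% and 0.00564% were called in these comparisons. The only gene called, in both comparisons with Control, was Top2b (DNA topoisomerase II beta). It read 5.64, the lowest value the offset allows, on array 1 of each Control sample and 12.2 and 11.92 on array 2 of the same samples, so the arrays of each Control sample differed from each other by more than the groups did. Top2b is named after its values were seen.

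At the looser mark of an unadjusted p under 0.05, which 25.4% of all genes passed for STZ+MENS against STZ, 18.0% for STZ+MENS against Control and 17.0% for STZ against Control, members lay to both sides. For STZ+MENS against STZ, Slc25a15, Cps1 and Otc of the 8 passed it, all 3 lower in STZ+MENS livers. For STZ+MENS against Control, Cps1 and Otc passed it on the lower side and Asl on the higher. For STZ against Control, Slc25a13 alone passed it, on the higher side. Over all genes the split was nearly even, with 2244 higher and 2265 lower, 1565 higher and 1628 lower, and 1505 higher and 1507 lower in the same order of comparisons. The members' counts of 3, 3 and 1 of 8 were not tested against the shares of all genes.

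The groups' samples did not overlap in 5 of the 8 genes for STZ+MENS against STZ, where 57.9% of all genes did not overlap. For STZ+MENS against Control they did not overlap in 5 of 8, beside 48.6% of all genes, and for STZ against Control in 3 of 8, beside 52.1%. The median difference over the 8 genes was -0.036 for STZ+MENS against STZ, where the median of all genes was 0.055. It was -0.003 for STZ+MENS against Control, beside 0.02 over all genes, and 0.036 for STZ against Control, beside -0.018. The list held genes on both sides of 0 in each comparison.

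**Figure D1:**
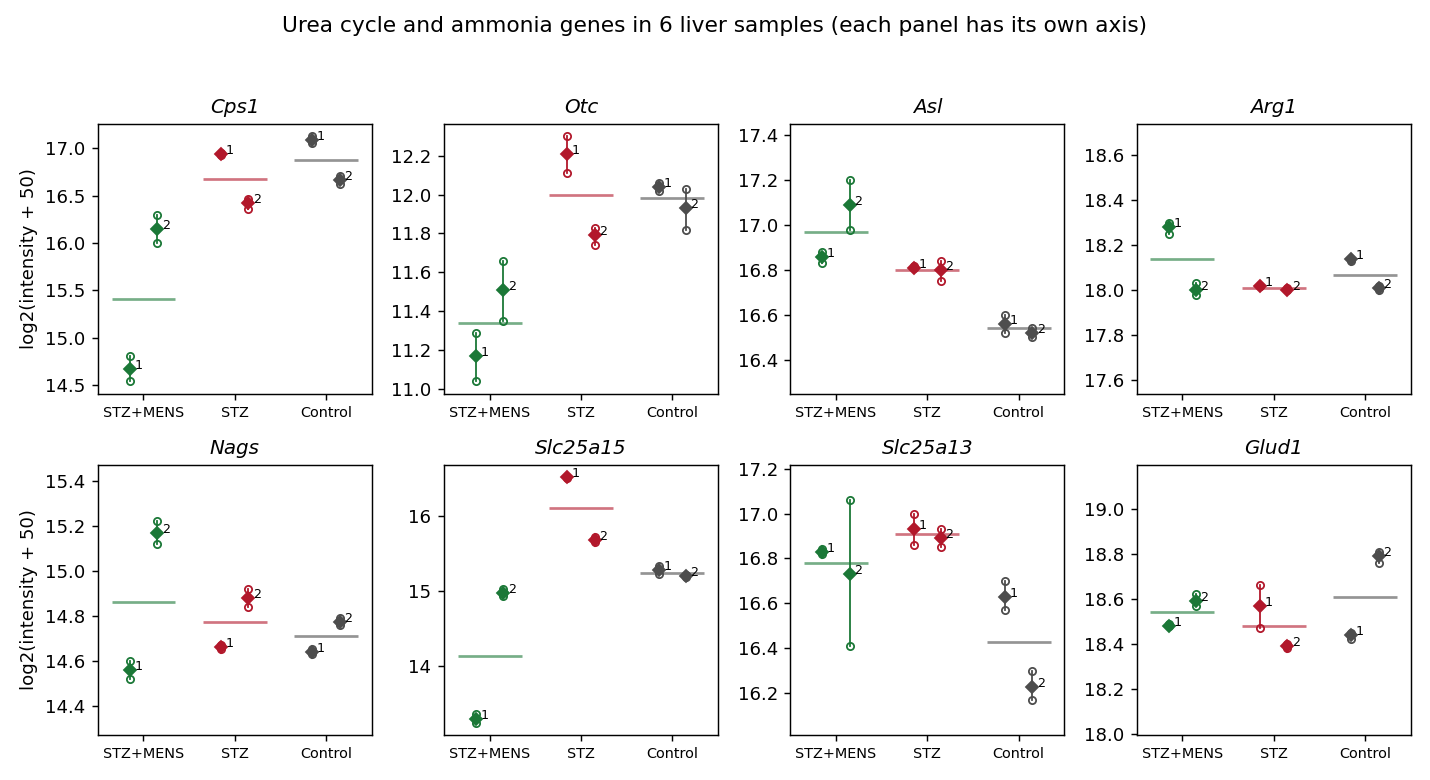
Log2 intensity of the 8 measured genes, a panel per gene with its own vertical axis, for STZ+MENS, STZ and Control livers from left to right. Open circles are arrays, diamonds are the 2 liver samples of a group (numbered) and horizontal lines are group means. Cps1, Otc and Slc25a15 have both STZ+MENS samples below all other samples, with STZ+MENS sample 1 the lowest in each, whereas Arg1 and Glud1 overlap between groups.

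Carbamoyl phosphate synthesis is the entry step. Cps1 encodes carbamoyl phosphate synthetase I, the mitochondrial enzyme that fixes ammonia into carbamoyl phosphate (mouse assembly GRCm38.p6, chromosome 1, 67122426 to 67231267). Its log2 intensity was 14.67 and 16.15 in STZ+MENS livers, 16.94 and 16.42 in STZ livers and 17.09 and 16.67 in Control livers. Both STZ+MENS samples lay below every STZ and Control sample, and the pair stood far apart from each other, with sample 1 by itself at the bottom. STZ and Control samples were interleaved.

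Group means of Cps1 were 15.41 ± 1.04 in STZ+MENS, 16.68 ± 0.37 in STZ and 16.88 ± 0.30 in Control livers (SD, n = 2 each). The difference between STZ+MENS and STZ was -1.27 ± 0.48 (95% interval -2.43 to -0.11; limma, adjusted p = 0.17), a 2.41-fold lower level that did not pass the threshold. Against Control it was -1.47 ± 0.48 (-2.63 to -0.31; limma, adjusted p = 0.202). Sample 1 of STZ+MENS set much of its size. Without it the difference from STZ was -0.53, and without sample 2 it was -2.01. Each of these fits leaves a lone STZ+MENS sample, with no spread of its own. STZ differed from Control in Cps1 by -0.20 ± 0.48, with an interval of -1.36 to 0.96 that leaves room for a more than 2-fold difference in the lower direction.

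Nags encodes N-acetylglutamate synthase, which makes the obligate activator of Cps1 (chromosome 11, 102145513 to 102149528). Its brightest probe read 14.56 and 15.17 in STZ+MENS livers, 14.66 and 14.88 in STZ livers and 14.64 and 14.77 in Control livers. All groups overlapped, and the widest pair was again that of STZ+MENS. The differences were 0.10 ± 0.23 for STZ+MENS against STZ, 0.16 ± 0.23 for STZ+MENS against Control and 0.06 ± 0.23 for STZ against Control (limma, adjusted p = 0.823, 0.771 and 0.923).

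The other 2 Nags probes did not follow the brightest. The second brightest read 10.36 and 11.99 in STZ+MENS livers, 12.24 and 11.81 in STZ livers and 11.96 and 11.66 in Control livers. Here STZ+MENS sample 1 was the lowest of all and STZ+MENS sample 2 lay among the samples of the other groups. Its difference between STZ+MENS and STZ was -0.85 and that of the dimmest probe was -0.34, against 0.10 for the brightest. The direction of Nags in STZ+MENS livers therefore depended on the probe, and which transcripts each probe detects is not given in the sources used here.

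Otc encodes ornithine transcarbamylase, which joins carbamoyl phosphate to ornithine in the mitochondrion. It lies on the X chromosome (GRCm38.p6, 10252230 to 10321024, plus strand). Its promoter window is shown because Otc is, with Slc25a15, a member whose STZ+MENS samples were both below all others and for which a promoter sequence was at hand. The sequence, from RefSeq on GRCm38.p6, is the stretch directly upstream of the gene, chrX:10252055-10252229 on the plus strand, and capitals mark matches to the C/EBP motif TTNNGNAA.

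Otc promoter: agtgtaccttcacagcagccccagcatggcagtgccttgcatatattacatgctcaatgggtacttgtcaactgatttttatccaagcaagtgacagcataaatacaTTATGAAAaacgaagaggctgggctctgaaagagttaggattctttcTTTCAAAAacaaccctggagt

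C/EBP factors are liver transcription factors that bind the promoters of several urea cycle genes. On both strands, the motif TTNNGNAA had 2 matches in this window of 175 bases, starting at bases 108 and 155, and 29.5% of 32851 mouse promoter windows cut to the same length held at least 1. Each of these windows, that of Otc included, was the first 175 of the 250 bases before a listed start. The bases nearest to that start were left out. Neither the cAMP response element TGACGTCA nor its core TGACG was present, which 0.548% and 10.3% of windows held. The HNF4A-type motif CAAAGTCCA was not present either, and 0.247% of windows held it. A match describes letters only and does not show binding.

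Otc read 11.17 and 11.51 in STZ+MENS livers, 12.21 and 11.79 in STZ livers and 12.04 and 11.93 in Control livers. Both STZ+MENS samples were the lowest of the 6, while the STZ samples enclosed the Control samples. Sample 2 of STZ+MENS lay 0.28 below the nearest STZ sample, and its own arrays were 0.3 apart, at 11.35 and 11.66. The lowest STZ array read 11.74. The difference between STZ+MENS and STZ was -0.66 ± 0.20 (95% interval -1.15 to -0.17; limma, adjusted p = 0.122), a 1.58-fold lower level.

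Against Control, Otc in STZ+MENS differed by -0.65 ± 0.20 (-1.14 to -0.16; limma, adjusted p = 0.189). STZ and Control means differed by 0.01 ± 0.20, with an interval of -0.48 to 0.50. In Otc, STZ+MENS sample 1 was 0.34 below sample 2, and 16.8% of all genes had a gap as low or lower. Leaving out STZ+MENS sample 1 gave -0.49 against STZ and leaving out sample 2 gave -0.83, each with a lone STZ+MENS sample left.

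After citrulline has left the mitochondrion, argininosuccinate is formed and then cleaved. Asl encodes argininosuccinate lyase, which releases arginine and fumarate (chromosome 5, 130011258 to 130024381). It read 16.86 and 17.09 in STZ+MENS livers, 16.81 and 16.80 in STZ livers and 16.56 and 16.52 in Control livers. The 3 groups did not overlap at all, with STZ+MENS highest, STZ between and Control lowest; the group means of Cps1 stood in the reverse order.

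The difference of Asl between STZ+MENS and Control was 0.43 ± 0.14 (95% interval 0.08 to 0.78; limma, adjusted p = 0.209), between STZ+MENS and STZ 0.17 ± 0.14 (-0.18 to 0.52; adjusted p = 0.505) and between STZ and Control 0.26 ± 0.14 (-0.09 to 0.62; adjusted p = 0.419). None passed the threshold. Asl was the only member measured whose samples stood in the order STZ+MENS over STZ over Control without overlap.

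Arg1 encodes arginase 1, which splits arginine into urea and ornithine in the last step of the cycle (chromosome 10, 24915207 to 24927470). It read 18.28 and 18.00 in STZ+MENS livers, 18.02 and 18.00 in STZ livers and 18.14 and 18.01 in Control livers. The groups overlapped, and the group means spanned 0.13. Differences were 0.13 ± 0.15 for STZ+MENS against STZ (95% interval -0.25 to 0.50), 0.07 ± 0.15 for STZ+MENS against Control (-0.31 to 0.44) and -0.06 ± 0.15 for STZ against Control (-0.44 to 0.31).

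The carriers Slc25a15 and Slc25a13 link the mitochondrial and cytosolic parts of the cycle. Slc25a15 encodes ORC1, which exchanges ornithine for citrulline across the inner mitochondrial membrane (chromosome 8, 22375550 to 22398621, minus strand). Its group means spanned the most of the 8 genes. The window upstream of Slc25a15, chr8:22398622-22398871 on the minus strand (RefSeq, GRCm38.p6), is printed beside that of Otc for comparison; it held no match to any of the 4 motifs, so no letters are in capitals.

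Slc25a15 promoter: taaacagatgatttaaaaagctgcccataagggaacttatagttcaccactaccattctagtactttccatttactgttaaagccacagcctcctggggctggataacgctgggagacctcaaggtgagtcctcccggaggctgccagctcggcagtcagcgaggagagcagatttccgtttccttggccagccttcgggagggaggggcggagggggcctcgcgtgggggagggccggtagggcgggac

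Of windows of the same length of 250 bases, 36.8% held TTNNGNAA, 17.8% TGACG, 1.55% TGACGTCA and 0.384% CAAAGTCCA, and no match says only that these letters are not in the window. Of the 8 measured genes, 5 had a promoter entry.

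Slc25a15 read 13.30 and 14.97 in STZ+MENS livers, 16.51 and 15.68 in STZ livers and 15.28 and 15.20 in Control livers. The groups did not overlap, with STZ+MENS lowest, Control between and STZ highest. Both STZ-treated groups were spread far more widely than Control, whose 2 samples nearly coincided. In deposited intensity the arrays ran from 9661 in STZ+MENS sample 1 to 93129 in STZ sample 1.

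The difference between STZ+MENS and STZ in Slc25a15 was -1.96 ± 0.55 (95% interval -3.28 to -0.63; limma, adjusted p = 0.104), a 3.88-fold lower level and the largest difference of any member in any comparison. Against Control, STZ+MENS differed by -1.10 ± 0.55 (-2.42 to 0.22; limma, adjusted p = 0.349) and STZ by 0.86 ± 0.55 (-0.47 to 2.18; adjusted p = 0.48). Without STZ+MENS sample 1, the difference from STZ was -1.12 and that from Control -0.26. Without sample 2 the difference from STZ was -2.79. A lone STZ+MENS sample is left in each of these fits.

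Slc25a13 encodes citrin, the aspartate-glutamate carrier that supplies aspartate to argininosuccinate synthesis (chromosome 6, 6041218 to 6217304). It read 16.83 and 16.73 in STZ+MENS livers, 16.93 and 16.89 in STZ livers and 16.63 and 16.23 in Control livers. No groups overlapped, with STZ highest and Control lowest. Sample 2 of STZ+MENS rests on arrays at 16.41 and 17.06, a gap of 0.65 that exceeds the distances between groups.

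STZ differed from Control in Slc25a13 by 0.48 ± 0.17 (95% interval 0.05 to 0.90; limma, adjusted p = 0.25), a level 1.39-fold higher. STZ+MENS differed from Control by 0.35 ± 0.17 (-0.08 to 0.77; adjusted p = 0.354) and from STZ by -0.13 ± 0.17 (-0.55 to 0.29; adjusted p = 0.68). The 2 carriers thus differed in the direction of STZ+MENS against Control, Slc25a15 lying below and Slc25a13 above, neither past the threshold.

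Glud1 encodes glutamate dehydrogenase 1, which frees ammonia from glutamate in mitochondria (chromosome 14, 34310727 to 34345033). It read 18.48 and 18.59 in STZ+MENS livers, 18.57 and 18.39 in STZ livers and 18.44 and 18.79 in Control livers. Every group overlapped with the others, and group means spanned 0.13. Differences were 0.06 ± 0.17 for STZ+MENS against STZ (95% interval -0.36 to 0.48), -0.07 ± 0.17 for STZ+MENS against Control (-0.49 to 0.35) and -0.13 ± 0.17 for STZ against Control (-0.55 to 0.29).

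**Figure D2:**
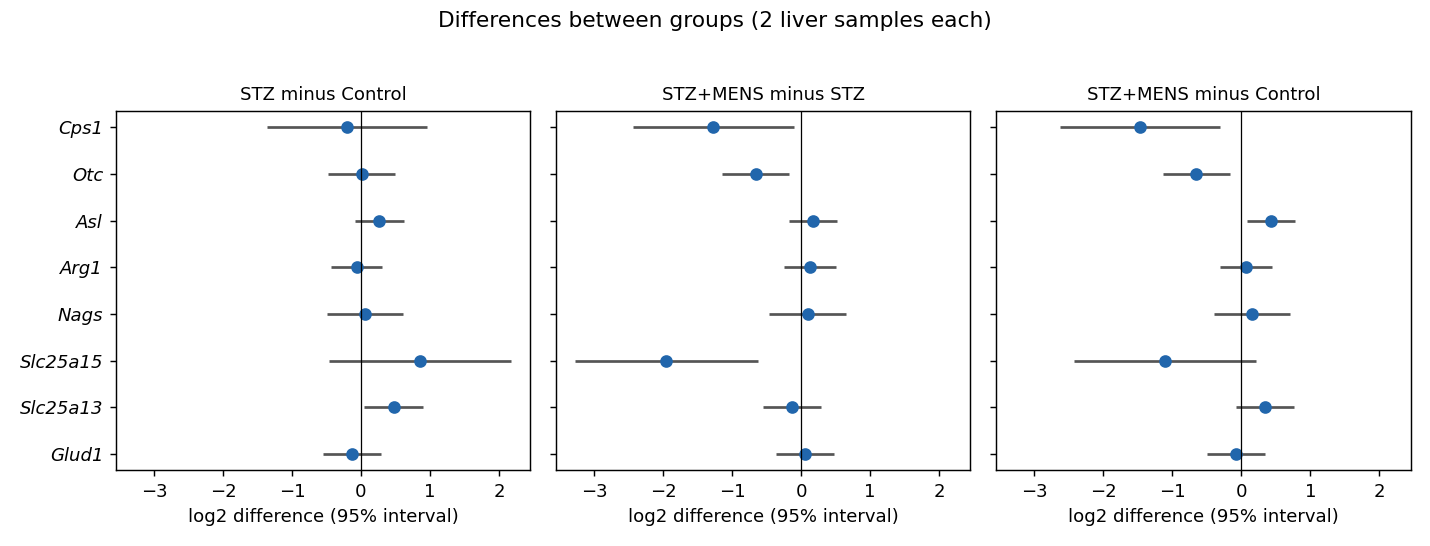
Log2 difference of each measured gene in STZ+MENS against STZ, STZ+MENS against Control and STZ against Control, a panel each; points are limma estimates and bars 95% intervals. The interval of Slc25a15 between STZ+MENS and STZ runs from -3.28 to -0.63, and those of Cps1 and Otc also end below 0, although none of the genes passed the adjusted threshold.

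Arg1 and Glud1 sat near the top of the intensity scale, where a probe may have little room left to read higher. A probe was taken as near the top if it was among the 100 brightest of the 26423 probes on any array. Arg1 ranked 48 to 81 in STZ+MENS, 76 to 79 in STZ and 62 to 79 in Control livers, within the top 100 on all 12 arrays. Glud1 ranked 21 to 31 in STZ+MENS, 18 to 40 in STZ and 10 to 36 in Control livers.

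Every array had the same highest value, 575541. Arg1 lay 0.83 to 1.16 log2 units below it and Glud1 0.32 to 0.75. The sorted values of the arrays were nearly the same before any step taken here, so a rank gives nearly the same value on every array. Arg1 had a value equal to that of another array on 5 arrays. Its values at ranks 76 and 79 were close, at 265636.5 and 262111.06. The small spread of both genes was measured this near to the top of the scale. Whether compression at the top of the scale had a part in it was not tested. The other members stayed outside the top 100 on every array, Asl coming closest at rank 204.

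**Figure D3:**
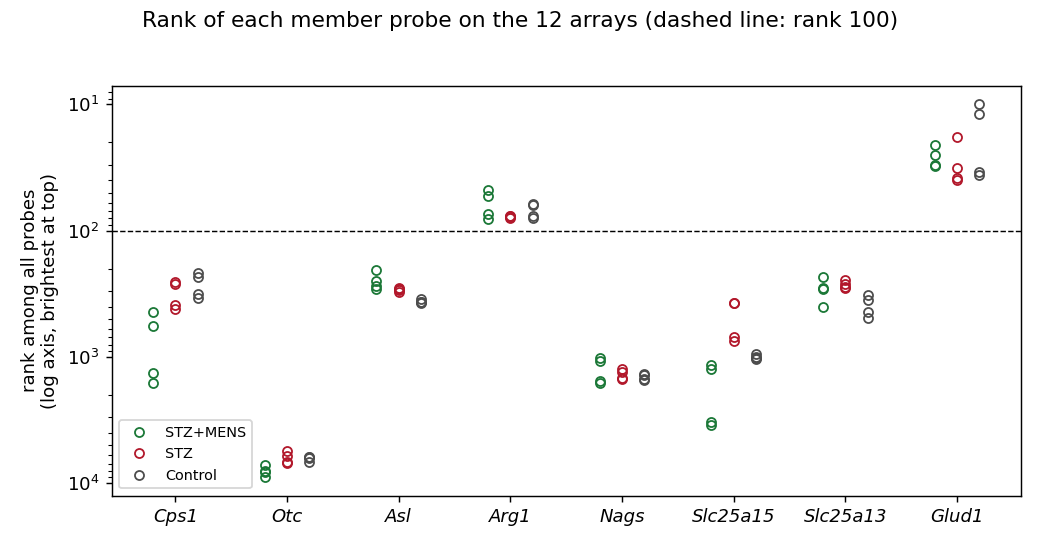
Brightness rank of each measured gene among 26423 probes on the 12 arrays, on a logarithmic axis with rank 1 at the top, for STZ+MENS, STZ and Control arrays; the dashed line marks rank 100. Arg1 and Glud1 stay above the line on all arrays, Slc25a15 runs from rank 1157 to 3483 on STZ+MENS arrays against 373 to 742 on STZ arrays, and Otc stays between 5579 and 8928.

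Samples of STZ+MENS stood apart from each other in some members and not in others. Sample 1 was below sample 2 by 1.67 in Slc25a15 and by 1.47 in Cps1, and only 0.603% and 0.868% of all genes had a gap as low or lower. In Nags sample 1 was below by 0.61 (7.48% of genes), and in Arg1 it was above by 0.27. Of the hepatocyte markers that were named, Apob, which encodes apolipoprotein B, showed such a split, at 14.21 and 15.84 in STZ+MENS livers, 17.43 and 16.85 in STZ livers and 17.31 and 17.26 in Control livers. The others did not: in STZ+MENS samples 1 and 2, Alb (albumin) read 18.85 and 18.87, Apoa1 19.00 and 18.96, Ahsg 18.56 and 18.51, Ttr 18.98 and 19.04 and Fgb 18.04 and 18.18. All of these read about as high as Arg1 and Glud1 or higher, so the same limit at the top of the intensity scale applies to them. Whether it hid a split was not tested.

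Of 9 hepatocyte markers 7 were measured, and none was at or below 0 on any array. Alb read 18.85 and 18.87 in STZ+MENS, 18.98 and 19.00 in STZ and 18.89 and 18.96 in Control livers, close to the array maximum. The markers' summed intensity ranged from 2295838 to 2471611 in STZ+MENS, 2322598 to 2448438 in STZ and 2616781 to 2660236 in Control livers. Summed intensity of the 9 cholangiocyte markers, of cells lining the bile ducts, was 25054 to 25844 in STZ+MENS, 33929 to 39336 in STZ and 18274 to 18991 in Control livers, an order STZ, STZ+MENS, Control that Slc25a13 also had. The 2 measured erythroid markers of 7 summed to 104836 and 9330 in STZ+MENS samples 1 and 2, against 32621 and 55363 in STZ and 79641 and 95699 in Control samples. The 10 Kupffer cell and macrophage markers summed to 71447 and 111613 in STZ+MENS samples 1 and 2, against 70466 to 73825 in STZ and 69607 to 81948 in Control livers, so sample 1 was the lower of the STZ+MENS pair here as in Cps1 and Slc25a15. The 9 stellate and fibroblast markers summed to 194343 and 130935 in STZ+MENS, 146585 and 154612 in STZ and 171646 and 138083 in Control samples. None was called. At an unadjusted p under 0.05, 4 were lower and 1 higher in STZ than in Control. In STZ+MENS, 3 were lower and 0 higher than in Control, and 1 lower and 0 higher than in STZ. Of the cholangiocyte markers, 4 were higher and 0 lower at this mark in STZ than in Control. In STZ+MENS, 3 of them were higher and 0 lower than in Control, and 0 higher and 2 lower than in STZ. Of all genes, 17.0% passed this mark for STZ against Control, 18.0% for STZ+MENS against Control and 25.4% for STZ+MENS against STZ. The counts of these markers were not tested against those shares. Of 6 pancreatic acinar markers 4 were measured, with Pnlip under an intensity of 50. They summed to 15686 to 21037 in STZ+MENS, 18904 to 22862 in STZ and 41468 to 41509 in Control livers. These sums largely followed Cela1 alone. It read 13.52 and 14.05 in STZ+MENS, 14.24 and 13.90 in STZ and 15.22 and 15.19 in Control samples. The median difference over the 4 markers was -0.081 for STZ against Control and 0.073 for STZ+MENS against Control. The drop was thus not shared by the list as a whole. The part of all these marker levels in the members' values was not tested.

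The genes with the pattern most like each of the 4 members of widest group span were found by the root mean square difference of centred log2 levels over the 6 samples. For Slc25a15 these were Rab7 (0.10), Acad11 (0.13) and Rps7 (0.15), and for Cps1 Dad1 (0.07), Smpd1 (0.08) and Rars (0.12). For Otc they were Suco (0.03), Ftl1 (0.05) and Dnajc24 (0.05), and for Slc25a13 S100a10 (0.05), Sall1 (0.06) and Mxra8 (0.06). None is a urea cycle gene. The likeness rests on 6 samples in 3 groups and is a description. The distance is smaller for any gene that varied little. Within a distance of 0.3 lay 49 genes for Slc25a15 and 109 for Cps1, but 3027 for Otc and 6634 for Slc25a13. Cps1 and Slc25a15 were 0.46 apart from each other.

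Of 23 further genes of ammonia and glutamine handling 21 were measured, and none was called in any comparison. At an unadjusted p under 0.05, 3 were lower and 0 higher in STZ+MENS than in STZ, 2 were higher and 0 lower in STZ+MENS than in Control, and 3 were higher and 0 lower in STZ than in Control. Of all genes, 25.4%, 18.0% and 17.0% passed this mark in the same order, split nearly evenly by direction. The counts of the 21 genes were not tested against these shares. Median differences of the 21 genes were -0.051, -0.029 and 0.076 in the same order.

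Oat encodes ornithine aminotransferase, which draws ornithine away from or into the cycle and in the liver sits mainly around the central vein. It read 17.63 and 18.28 in STZ+MENS livers, 18.84 and 18.90 in STZ livers and 17.38 and 17.23 in Control livers. No groups overlapped, with STZ highest and STZ+MENS between. STZ+MENS differed from STZ by -0.92 ± 0.23 (limma, adjusted p = 0.0872) and from Control by 0.65 ± 0.23 (adjusted p = 0.222), and STZ from Control by 1.57 ± 0.23 (adjusted p = 0.0924), a level 2.97-fold higher. On STZ arrays Oat ranked 5 to 11 among all probes, so its STZ level lay at the top of the scale. It ranked 34 to 136 on STZ+MENS arrays and 167 to 205 on Control arrays.

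Slc1a2, a glutamate transporter of pericentral hepatocytes, read 12.64 and 13.03 in STZ+MENS livers, 13.97 and 15.08 in STZ livers and 13.81 and 13.09 in Control livers. STZ+MENS lay lowest and STZ highest without overlap, although the STZ samples were wide apart. The difference was -1.69 ± 0.41 between STZ+MENS and STZ (limma, adjusted p = 0.0847) and 1.08 ± 0.41 between STZ and Control (adjusted p = 0.269).

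Slc7a2, a carrier of arginine, ornithine and lysine, differed by 0.47 ± 0.16 between STZ and Control (limma, adjusted p = 0.227), and the glutamine carrier Slc38a2 by -0.39 ± 0.15 between STZ+MENS and STZ (adjusted p = 0.167). Sirt3, a mitochondrial deacetylase, differed by 0.38 ± 0.14 between STZ+MENS and Control (adjusted p = 0.228). Glul, glutamine synthetase, which binds ammonia in pericentral hepatocytes, read 17.62 and 17.62 in STZ+MENS livers, 16.96 and 17.96 in STZ livers and 17.63 and 17.69 in Control livers. Its STZ samples lay on either side of all the others, and the largest group difference was -0.20 ± 0.31, between STZ and Control. Glul ranked 120 to 140 on STZ+MENS, 80 to 410 on STZ and 114 to 135 on Control arrays. By the rule used here it was thus near the top of the scale too.

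**Figure D4:**
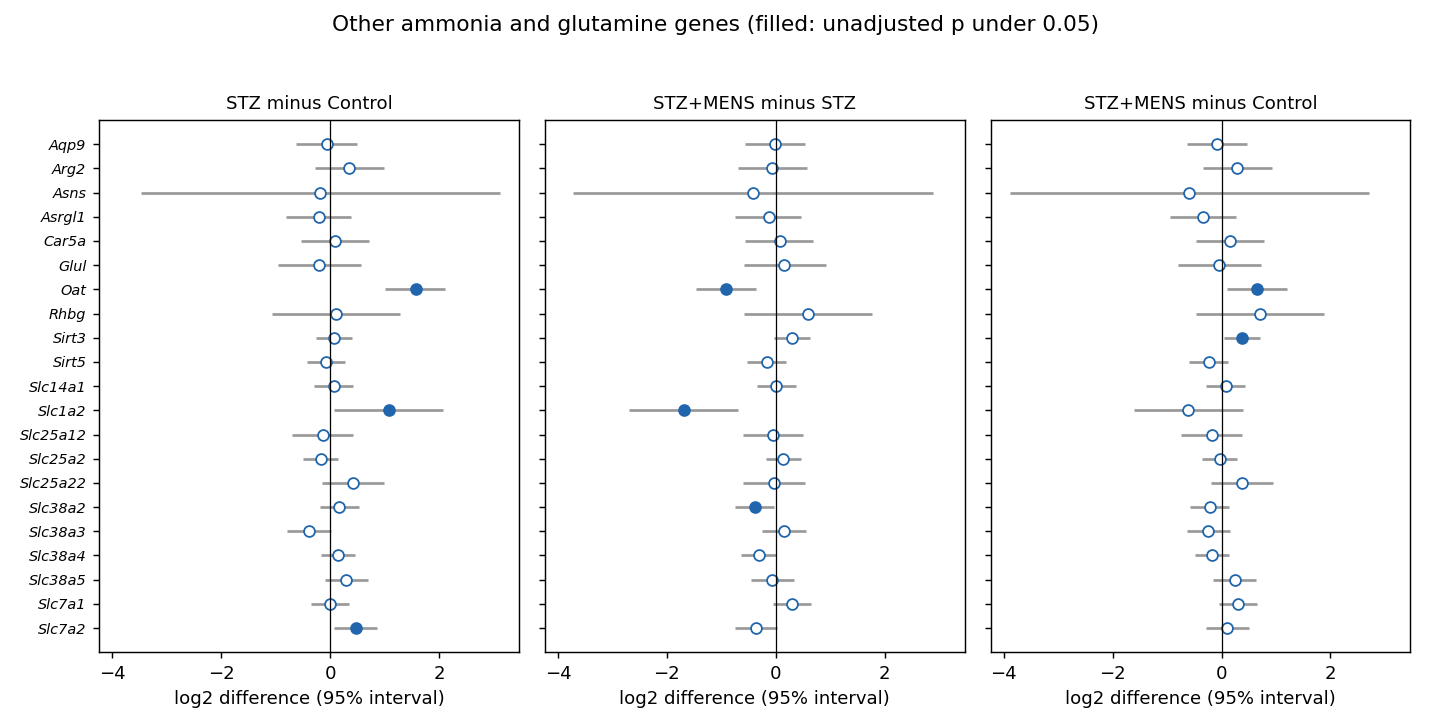
Log2 difference of the 21 other measured genes of ammonia and glutamine handling in STZ+MENS against STZ, STZ+MENS against Control and STZ against Control; points are limma estimates, filled where the unadjusted p was under 0.05 and open otherwise, and bars are 95% intervals. Oat and Slc1a2 lie furthest from 0 among the filled points, below 0 for STZ+MENS against STZ and, in STZ against Control, above it.

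Upstream of the cycle, 39 of 42 genes that release nitrogen from amino acids were measured, with none called. At an unadjusted p under 0.05, 5 were higher and 12 lower in STZ+MENS than in STZ, 6 higher and 4 lower in STZ+MENS than in Control, and 7 higher and 4 lower in STZ than in Control. All genes divided into 2244 higher and 2265 lower, 1565 and 1628, and 1505 and 1507 in these comparisons, and the shares of this list and of those that follow were not tested against them. Tat, tyrosine aminotransferase, differed by -1.17 ± 0.23 between STZ+MENS and STZ (limma, adjusted p = 0.0663), and Dld, a subunit of the branched-chain and glycine-cleaving complexes, by -1.39 ± 0.25 (adjusted p = 0.0595). Got1, the cytosolic aspartate aminotransferase, which forms part of the aspartate supply, differed by -0.98 ± 0.23 (adjusted p = 0.0797). Bcat2, a branched-chain aminotransferase, lay the other way, at 1.19 ± 0.28 (adjusted p = 0.0801).

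Sds, serine dehydratase, which frees ammonia from serine, was 0.68 ± 0.15 higher in STZ than in Control (limma, adjusted p = 0.14) and 0.73 ± 0.15 higher in STZ+MENS than in Control (adjusted p = 0.127). Its STZ+MENS samples read 16.43 and 16.17, its STZ samples 16.29 and 16.21 and its Control samples 15.52 and 15.62, so both STZ groups stood above Control and overlapped with each other. Uroc1, urocanase of histidine breakdown, likewise differed by 0.64 ± 0.14 between STZ+MENS and Control (adjusted p = 0.128).

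Among 17 of 19 measured regulators of urea cycle genes none was called; 2 were higher and 5 lower in STZ+MENS than in STZ at an unadjusted p under 0.05, 2 higher and 5 lower in STZ+MENS than in Control, and 1 higher and 2 lower in STZ than in Control. Klf15, a transcription factor of amino acid breakdown, differed by -0.98 ± 0.19 between STZ+MENS and STZ (limma, adjusted p = 0.0663). Nr3c1, the glucocorticoid receptor, differed by -0.69 ± 0.21 (adjusted p = 0.118) and Gcgr, the glucagon receptor, by 0.53 ± 0.13 (adjusted p = 0.0886). The pioneer factor Foxa1 differed by -1.03 ± 0.14 between STZ+MENS and Control (adjusted p = 0.111). Its samples read 11.78 and 11.96 in STZ+MENS, 12.14 and 12.12 in STZ and 12.86 and 12.94 in Control livers, without overlap.

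Other genes of periportal hepatocytes, the zone of the urea cycle, were counted in the same way over the 17 measured of 19 listed. At an unadjusted p under 0.05, 0 were higher and 3 lower in STZ+MENS than in STZ, 4 higher and 0 lower in STZ+MENS than in Control, and 5 higher and 0 lower in STZ than in Control, with median differences of -0.243, -0.145 and 0.306. G6pc, the glucose-releasing phosphatase, differed by -2.25 ± 0.38 between STZ+MENS and STZ (limma, adjusted p = 0.0595). Over the 17 measured of 24 listed pericentral genes, the counts were 0 higher and 4 lower, 3 higher and 1 lower, and 4 higher and 1 lower, with medians of -0.153, -0.166 and 0.073 in the same order of comparisons. Neither zone had a called gene. Oat stands in 3 of these lists, and Slc1a2, Glul, Rhbg, Sds, Hal, Uroc1 and Gldc in 2, so their counts are not independent.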

How the data were processed

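Liver RNA was measured with single-colour Cy5 arrays (Phalanx Mouse OneArray, version 2, release 2.1). The deposited values are linear intensities that the authors had already processed: sorted values spanned at most 6.3% of their mean across arrays (leaving out the 1000 lowest) and 44 to 52 of 26423 probes per array were below 0. The submitters' processing notes name limma 3.30.7, without its role, and the background and normalization methods were not given in the sources used here. From the deposited intensity, values below 0 were set to 0, 50 was added and log2 was taken. Of the probes, 20377 had 1 gene symbol, 0 several and 6046 none; symbols were updated through RefSeq names on GRCm38.p6 (18213 current, 2126 by synonym, 38 as given). Each of the 17742 genes was represented by its brightest probe. Array medians were 768.89 to 770.33. Precision is limited by the 2 liver samples per group. Both arrays of a sample were averaged. The 3 group means were fitted jointly with limma 3.58.1 (two-sided) in R 4.3.3, with 3 residual and 3.19 prior degrees of freedom; data.table (version 1.17.8), Python 3.11.15 and matplotlib 3.10.9 were also used. The script was tested on simulated data.

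The members and lists were chosen with earlier results of these data known. All members were named; of other lists, up to 5 genes per comparison (3 for markers) with the smallest p among those without overlap could be named, of which a part is given, and Glul was added after its values were seen. Alternatives covered the offset, the probe rule, the samples and arrays in the fit, blocks, a filter at an intensity of 100, centring, a variance trend and leaving out each sample. The sample numbers 1 and 2 of the source names did not pair the groups (correlations of 0 between STZ and Control, -0.03 between STZ+MENS and Control and -0.07 between STZ+MENS and STZ). By the titles' numbers, STZ shares none with the other groups.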

Additional observations from a re-analysis of the deposited data

How the results depend on the processing

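Of 384 alternative values of the members (24 differences under 16 settings), 355 kept direction and side of the threshold, 11 passed it, 0 lost it and 18 turned direction, in 11 of the 24. Fitting only the groups compared, blocks, fits to all 12 arrays, the filter and the variance trend leave each member's difference unchanged. Leaving out a sample of the third group does too, and repeats the fit of only the groups compared. Averaging all probes can alter only Nags, so the count of 355 was partly set in advance. With all 12 arrays and the sample as a random block, 3 members were called for STZ+MENS against STZ (Slc25a15, Cps1 and Otc) and 2 for STZ+MENS against Control (Cps1 and Asl), and 3079, 1336 and 1204 genes for STZ+MENS against STZ, STZ+MENS against Control and STZ against Control; this counts arrays of a sample as partly independent. Adding the array number as a replicate block gave 3 and 1 members and 2741, 1051 and 1024 genes. With the source names' sample number as a replicate block, which for STZ joins samples whose titles carry other numbers, 0 members and, for STZ against Control, 1 gene were called, and no call of a member changed. An offset of 200 left 0 genes called for STZ against Control and 0 for STZ+MENS against Control. Fitting only the groups compared called 181 genes for STZ against Control and 2 for STZ+MENS against Control. For STZ against Control, 2 members had an unadjusted p under 0.05 in the fit of only those groups and in both array fits. Centring the arrays turned Otc to -0.0016 for STZ against Control. The mean of all probes turned Nags to -0.36 for STZ+MENS against STZ and -0.29 for STZ+MENS against Control.

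Leaving out each sample in turn gave, for STZ+MENS against STZ, -0.01 to 0.27 in Arg1, -0.21 to 0.4 in Nags and -0.03 to 0.15 in Glud1, with 0 to 2 members called (without STZ+MENS sample 2), 0 to 3 at an unadjusted p under 0.05 and 0 to 1759 genes called. For STZ+MENS against Control it gave -0.07 to 0.2 in Arg1, -0.15 to 0.46 in Nags and -0.25 to 0.1 in Glud1, with 1 to 3 members at an unadjusted p under 0.05 and 0 to 12 genes called. For STZ against Control it gave -0.46 to 0.06 in Cps1, -0.2 to 0.22 in Otc, -0.12 to 0.0019 in Arg1, -0.05 to 0.17 in Nags and -0.31 to 0.04 in Glud1, with 0 to 2 members at an unadjusted p under 0.05 and 0 to 181 genes called. A lone sample left in a group was assumed to vary like the others. The cause of these shifts was not tested, beyond the fewer or added samples that each setting itself brings. Over all alternatives Slc25a15 was lower in STZ+MENS than in STZ, at -2.79 to -1.12, Cps1 at -2.01 to -0.53 and Otc at -0.87 to -0.45. In these genes both STZ+MENS samples lay below both STZ samples, so leaving out a sample could not turn the direction. The differences of Nags, Arg1 and Glud1 did not pass the threshold, which does not show that these genes were equal between groups. The size of difference that 2 samples per group could detect is not given here.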
